A study of Mus musculus with 14 samples.

Results

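The subject is the nuclear genes for respiratory complexes II, III, IV and V, measured in heart and hippocampus of mouse pups and adults. A gene was a member when its symbol was Sdha, Sdhb, Sdhc, Sdhd or Cyc1, or began with Uqcr, Atp5, Cox5, Cox6b, Cox6c, Cox7b or Cox7c. Of 18194 genes measured by a probe set that names 1 gene, 37 met this rule. They comprised 4 genes of complex II, 9 of complex III, 7 of complex IV and 17 of complex V, of which 5 encode the catalytic F1 part and 12 the stalks and the membrane part, Fo. No probe set naming Cox7b alone was among those used here. The 37 genes had 74 probe sets, 23 genes had more than 1, and each gene took its value from the probe set with the highest mean over the 14 arrays.

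All tissue was from C57BL/6 mice and carried no treatment that the labels name. Adult heart and adult hippocampus RNA was purchased, from male mice 10 weeks old per the labels, whose titles give 2 biological replicates per tissue and 2 technical arrays for each, averaged here. Pup heart and pup hippocampus came from animals 7 days old whose sex was not given, with 3 biological replicates per tissue and 1 array for each, hybridized with isolated mRNA. Age, RNA source and preparation therefore cannot be told apart. Other labels call each of the 4 adult arrays of a tissue a biological replicate, and the study's methods speak of a single adult male mouse. With the adult arrays of a tissue taken as 1 sample, the calls described here numbered 5 by age in heart, 6 by age in hippocampus and 0 between adult tissues. No source says that the adult replicates were separate animals, so p-values reflect only how much the hybridized samples varied, and part of that may be technical. Values are log2 units of array signal in bulk tissue, in which fewer cells of a type and less RNA per cell cannot be told apart.

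Oxidative phosphorylation passes electrons through complexes in the inner mitochondrial membrane and uses the proton gradient to make ATP. Complex II, succinate dehydrogenase, oxidizes succinate and reduces ubiquinone. Complex III passes electrons from ubiquinol to cytochrome c, complex IV passes them to oxygen, and complex V, ATP synthase, turns the returning protons into ATP. Cardiac muscle is rich in mitochondria and relies on this route for contraction, and neurons rely on it to restore ion gradients. The genes described here are all nuclear, while the catalytic core of complex IV, cytochrome b of complex III and parts of Fo are encoded by mitochondrial DNA.

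Promoters of many respiratory genes are known to hold sites for the transcription factors NRF1, GABPA (an ETS factor), YY1 and SP1 and for oestrogen-related receptors. RefSeq promoters on GRCm38.p6, 250 bases before to 50 bases after the start site, were found for 29 of the 37 genes. The NRF1 core GCATGCGC, read on both strands, occurred in 6 of 29 members (20.7%) and in 3.05% of 27025 genes. The ETS core CCGGAAG occurred in 11 members (37.9%) and in 9.93% of all genes. The YY1 core AAGATGGC was found in 3 members (10.3%, all genes 3.19%) and the oestrogen-related receptor element TCAAGGTCA in Atp5g3 and Sdhd (6.9%, all genes 0.466%). The SP1 core GGGCGG occurred in 37.9% of members and 38.2% of all genes. The members Atp5k, Atp5l, Sdhb and Uqcr11 (13.8% of 29, all genes 0.618%) held both the NRF1 and the ETS core. Their windows are shown because they hold both cores, with the NRF1 and ETS cores of either strand in capitals. Each runs 5′ to 3′ along the gene's strand. The windows of Atp5k (chr5:108434380-108434499, minus strand), Sdhb (chr4:140961171-140961290, plus strand) and Uqcr11 (chr10:80406802-80406921, minus strand) run from 100 bases before the start site to 20 bases after it. The window of Atp5l (chr9:44920873-44920992, minus strand) is the most distant 120 bases of its promoter. In Atp5k the NRF1 core lies on both strands, overlapping itself.
Atp5k: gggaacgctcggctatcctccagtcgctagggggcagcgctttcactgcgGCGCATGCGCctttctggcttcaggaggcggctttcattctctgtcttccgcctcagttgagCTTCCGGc
Atp5l: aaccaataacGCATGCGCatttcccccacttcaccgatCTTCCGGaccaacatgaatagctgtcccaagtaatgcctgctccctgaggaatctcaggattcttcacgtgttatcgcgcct
Sdhb: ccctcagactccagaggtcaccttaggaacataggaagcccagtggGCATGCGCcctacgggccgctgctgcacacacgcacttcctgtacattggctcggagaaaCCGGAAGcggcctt
Uqcr11: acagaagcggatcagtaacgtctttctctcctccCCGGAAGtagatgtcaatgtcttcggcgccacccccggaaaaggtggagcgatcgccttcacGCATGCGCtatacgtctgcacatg
These matches are letters in a window and were not tested for binding. None of the 5 cores occurred in the promoters of 9 members, among them Atp5d and Sdha.

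The 37 genes were among the brighter genes of every sample. Their median level in heart was 13.15 in adults and 14.92 in pups, where the median over all genes was 9.94 and 9.80. In hippocampus it was 12.18 in adults and 13.82 in pups, where the median over all genes was 9.87 and 9.75. The mean over the 37 genes was 13.19 and 13.08 in the adult hearts, 14.59, 14.18 and 14.23 in the pup hearts, 12.22 and 12.54 in the adult hippocampi, and 13.41, 13.20 and 12.99 in the pup hippocampi. Adult samples lay below every pup sample of the same tissue, while the mean over all genes was 10.33 in both adult hearts and 10.23 to 10.29 in pup hearts. Exceptions at the low end were Cox6b2, known as a testis isoform, at 7.27 to 10.18 over the 10 samples, and Cox7c, whose probe sets were dim at 7.53 to 8.71. Many members were close to the top of the scale: 5 were within 1 log2 unit of the array maximum on every adult heart array, 15 on every pup heart array, 3 on every adult hippocampus array and 7 on every pup hippocampus array.

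**Figure D1:**
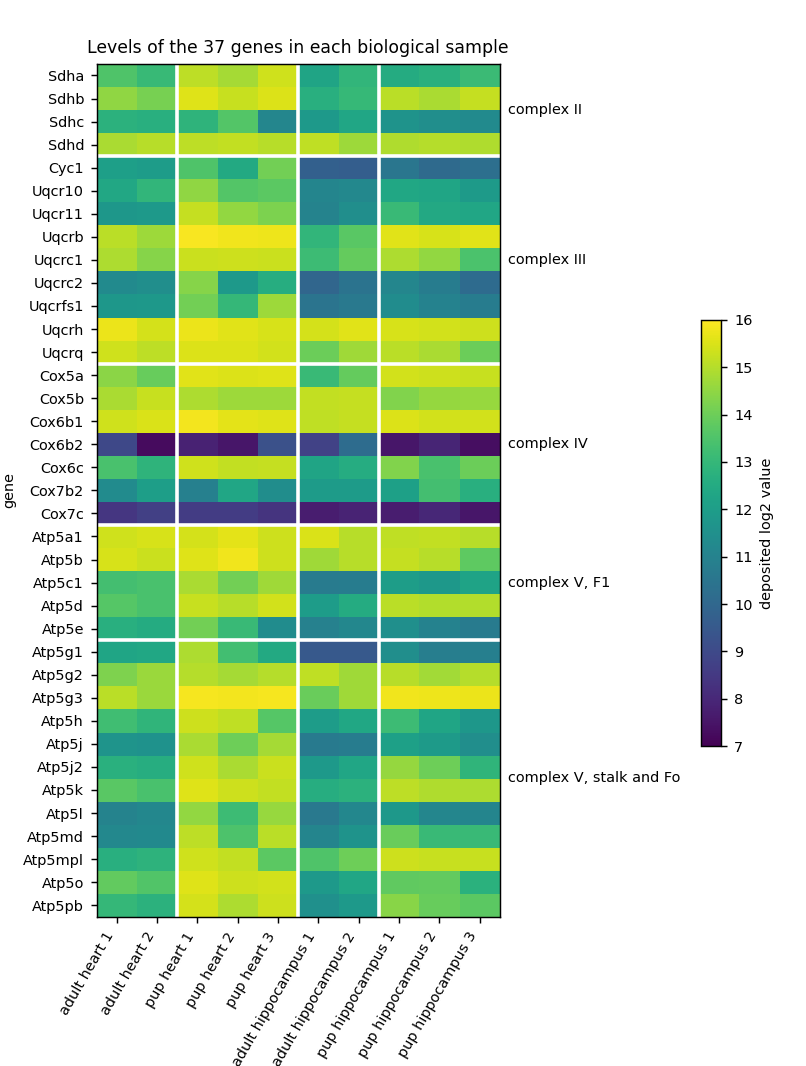
Deposited log2 value (colour) of each of the 37 genes (rows, by complex) in each of the 10 biological samples (columns, adult before pup within a tissue). The stalk and Fo rows of complex V are lower in adult than in pup columns in heart. Most are in hippocampus too, where those of Atp5g2, Atp5h and Atp5l overlap. Cox6b2 and Cox7c stay at the low end throughout, at 7.27 to 10.18 and 7.53 to 8.71.

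Of the 37 genes, 15 were lower in adults in both tissues, 5 in heart alone by the call, and 17 in neither. Between adult and pup heart, 20 of the 37 genes were lower and 0 higher at an adjusted p under 0.05 (limma, Benjamini-Hochberg over all genes), where 9.38% of all genes were lower and 11.2% higher. Their median difference was -1.23, and that of all genes was 0.09. Between adult and pup hippocampus, 15 were lower and 0 higher, where 7.44% of all genes were lower and 8.63% higher, with a median of -0.77 against 0.10 for all genes. Without probe sets of 3 types that can match several transcripts (_x_at, _s_at and _a_at), 31 members were measured, of which 14 were lower and 1 higher in heart and 8 lower and 2 higher in hippocampus. The median in that setting was -1.02 in heart and -0.26 in hippocampus, and that of all genes 0.11 and 0.12. All 15 were also lower in heart, so the shared genes made up 15 of 15 and 15 of 20. The 5 genes called in heart and not in hippocampus were Sdha, Cyc1, Uqcr10, Uqcrfs1 and Atp5l. With each array centred on its median, the median of all genes in heart moved to -0.07 and the split of all genes turned to 11.6% lower and 8.65% higher, with 21 members lower and 0 higher. The median of members minus that of all genes was -1.32 in both settings.

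The stalk and Fo genes of complex V had the most members called, 9 of 12 in heart and 8 of 12 in hippocampus, with medians of -1.90 and -1.47. In complex III 5 of 9 were called in heart and 2 of 9 in hippocampus, in complex II 2 of 4 and 1 of 4, in the F1 part 2 of 5 in each tissue and in complex IV 2 of 7 in each. Of the 20 heart calls, 9 held without any 1 heart replicate, namely Atp5d, Atp5j, Atp5j2, Atp5k, Atp5l, Atp5md, Atp5pb, Cox6c and Uqcr11. The heart count was 9 without adult heart replicate 2 and 12 without adult heart replicate 1, where the remaining adult sample was assumed to vary like the other groups. The hippocampal count was 6 without adult replicate 1, 7 without adult replicate 2 and 9 without pup replicate 1, and Atp5d, Atp5k, Atp5pb, Cox5a, Sdhb and Uqcrb were called in each of those settings.

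**Figure D2:**
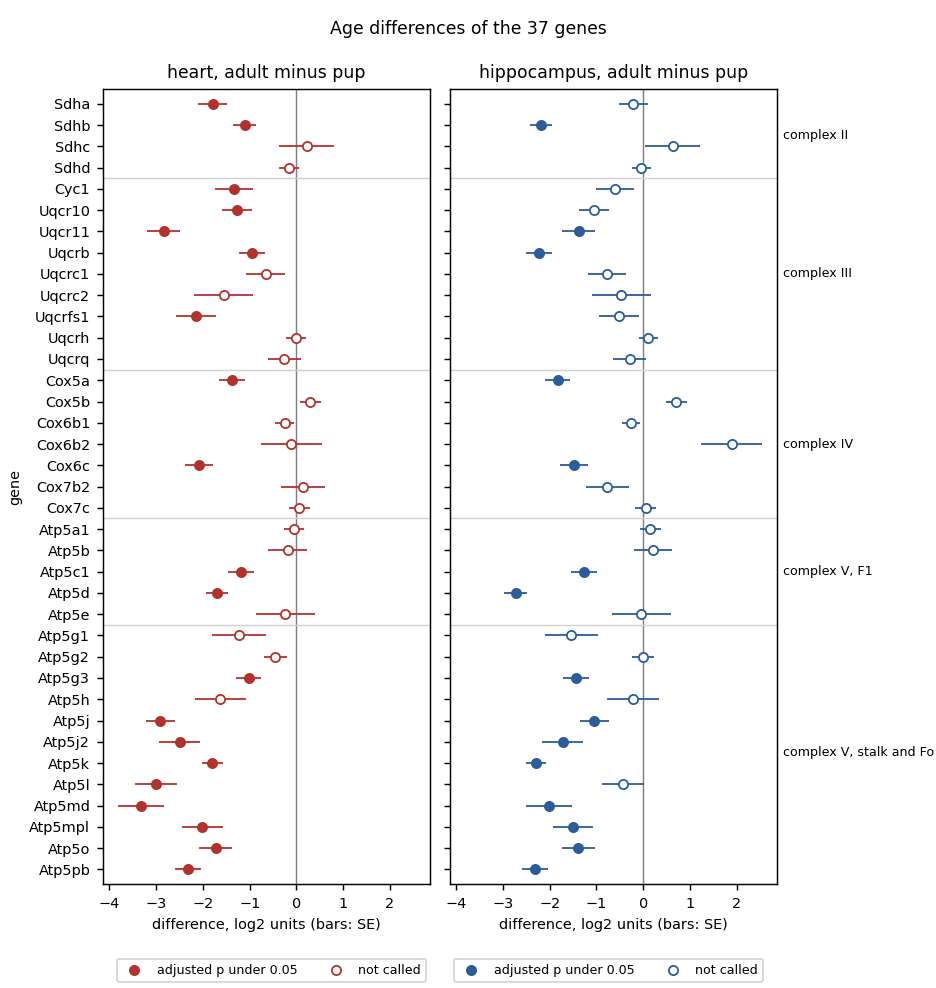
Adult minus pup difference in log2 units (points, with bars for the SE of limma) of each gene in heart (left) and hippocampus (right); filled points passed an adjusted p of 0.05. Filled points lie left of 0 in both panels, 20 in heart and 15 in hippocampus, and the stalk and Fo block holds 9 and 8 of them.

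The stalk and Fo part of ATP synthase includes the peripheral stalk, the ring of c subunits and small membrane proteins that join ATP synthase into dimers. Atp5md, a small accessory protein of the dimer, measured 11.19 and 11.27 in adult hearts, against 15.11, 13.49 and 15.06 in pup hearts. It was 11.11 and 11.61 in adult hippocampi and 13.94, 13.09 and 13.11 in pup hippocampi. Adult samples lay below all pup samples in both tissues, by 3.33 in heart (SE 0.49, limma adjusted p = 0.0028, 10.0-fold) and 2.02 in hippocampus (SE 0.49, adjusted p = 0.0254). The hippocampal call of Atp5md was lost without any of 4 hippocampal replicates (adjusted p up to 0.163), pup replicate 2 being the exception.

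Atp5l, subunit g of the membrane part, was 11.03 and 11.16 in adult hearts and 14.53, 13.16 and 14.61 in pup hearts, a difference of -3.01 (SE 0.45, limma adjusted p = 0.00278). In hippocampus its samples overlapped, at 10.65 and 11.16 in adults and 11.81, 11.13 and 11.10 in pups. The difference there was -0.44 (SE 0.45, adjusted p = 0.54). Atp5j, coupling factor 6 of the peripheral stalk, was 11.67 and 11.59 in adult hearts and 14.84, 14.01 and 14.78 in pup hearts, lower by 2.91 (SE 0.31, adjusted p = 0.000796). In hippocampus it was 10.72 and 10.79 in adults and 12.10, 11.89 and 11.44 in pups. That difference, -1.05 (SE 0.31, adjusted p = 0.0477), was not past the threshold without any 1 of the 5 hippocampal samples (adjusted p 0.0518 to 0.201).

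Atp5pb, subunit b of the peripheral stalk, fell by 2.32 in both tissues (SE 0.28 each, limma adjusted p = 0.00132 in heart and 0.0017 in hippocampus). It was 12.99 and 12.78 in adult hearts and 15.41, 14.88 and 15.32 in pup hearts. In hippocampus it was 11.53 and 11.85 in adults and 14.39, 13.92 and 13.72 in pups. The groups did not overlap in either tissue, and the calls held without any 1 replicate. Atp5k, subunit e, was lower by 1.80 in heart and 2.29 in hippocampus (adjusted p = 0.00143 and 0.000873). Atp5o, the stalk subunit that confers oligomycin sensitivity, was lower by 1.73 and 1.39, Atp5mpl, a small proteolipid, by 2.01 and 1.50, and Atp5j2, subunit f, by 2.50 and 1.72. The hippocampal calls of Atp5o, Atp5mpl and Atp5j2 were lost without either adult replicate, as were the heart calls of Atp5o and Atp5mpl. With the 3 types of probe set left out, Atp5pb stood at 0.37 in hippocampus.

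Atp5g1, Atp5g2 and Atp5g3 encode the same mature c subunit of the rotating ring with different targeting sequences, and their probe sets gave different patterns. Atp5g3, the brightest, was 15.07 and 14.63 in adult hearts and 15.89, 15.84 and 15.88 in pup hearts. In hippocampus it was 13.93 and 14.72 in adults and 15.79, 15.76 and 15.74 in pups. It was lower in adults by 1.02 in heart (SE 0.27, limma adjusted p = 0.0274) and 1.44 in hippocampus (SE 0.27, adjusted p = 0.0094), from pup values just under the array maximum. The heart call did not hold without adult heart replicate 1 (adjusted p = 0.0659), adult heart replicate 2 (0.181), pup heart replicate 1 (0.0574) or pup heart replicate 3 (0.0503), nor the hippocampal call without adult replicate 1 (0.0787).

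Atp5g2 was 14.27 and 14.65 in adult hearts and 14.99, 14.77 and 14.99 in pup hearts, and 15.13 and 14.72 in adult hippocampi and 15.05, 14.75 and 15.01 in pup hippocampi. Its age differences were -0.45 (95% interval -0.99 to 0.08) in heart and -0.01 (-0.55 to 0.53) in hippocampus. Atp5g1 was 12.28 and 12.35 in adult hearts and 14.88, 13.27 and 12.48 in pup hearts, with pup heart replicate 1 far above the others. It was 9.50 and 9.52 in adult hippocampi and 11.44, 10.84 and 10.88 in pup hippocampi. Its differences of -1.23 in heart and -1.54 in hippocampus did not pass the test (adjusted p = 0.165 and 0.0989), although adult samples lay below all pup samples in both tissues. The remaining stalk gene, Atp5h, subunit d, gave -1.63 in heart (adjusted p = 0.0661) and -0.22 in hippocampus, neither called.

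In the F1 part, which carries the catalytic sites, the called genes were Atp5c1, the central shaft subunit gamma, and Atp5d, subunit delta of the shaft. Atp5d was 13.64 and 13.41 in adult hearts against 15.26, 15.04 and 15.37 in pup hearts. It was 11.99 and 12.55 in adult hippocampi against 15.07, 14.96 and 14.96 in pup hippocampi. The difference was -2.73 in hippocampus (SE 0.24, limma adjusted p = 0.000665, 6.62-fold), the largest among the 37 genes in that tissue, and -1.70 in heart (adjusted p = 0.00231). A dimmer probe set of Atp5d, at a mean level of 12.02, gave -0.95 in heart and -0.76 in hippocampus and was not called. Atp5c1 was lower by 1.19 and 1.26 (adjusted p = 0.0166 and 0.017), calls that were lost without either adult replicate of the tissue. With those 3 types of probe set left out Atp5c1 was at -0.26 in heart and 0.12 in hippocampus, and neither was called. Atp5a1 and Atp5b, the alpha and beta subunits that form the catalytic hexamer, were near the top of the scale in all groups. Atp5a1 differed by -0.05 in heart and 0.15 in hippocampus, and Atp5b by -0.19 and 0.21, with none past the threshold. Atp5e, subunit epsilon, was at -0.24 and -0.04, also not called.

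In complex II the calls fell on the hydrophilic subunits. Sdha, the flavoprotein that oxidizes succinate, was 13.53 and 13.05 in adult hearts against 15.12, 14.77 and 15.36 in pup hearts, lower by 1.79 (SE 0.31, limma adjusted p = 0.00529). In hippocampus its samples overlapped, at 12.27 and 12.91 in adults and 12.54, 12.72 and 13.15 in pups (difference -0.21, adjusted p = 0.681). Sdhb, the iron-sulfur subunit, was 12.68 and 13.04 in adult hippocampi against 15.06, 14.86 and 15.20 in pup hippocampi, lower by 2.19 (SE 0.24, adjusted p = 0.00127). It was 14.52 and 14.15 in adult hearts against 15.56, 15.25 and 15.54 in pup hearts, lower by 1.11 (SE 0.24, adjusted p = 0.0122). The heart calls of Sdha and Sdhb did not hold without adult heart replicate 2 (adjusted p = 0.0509 and 0.0973). The membrane anchors Sdhc and Sdhd were not called, with intervals of -1.11 to 1.54 and -0.64 to 0.33 in heart and -0.70 to 1.95 and -0.53 to 0.44 in hippocampus.

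In complex III the called genes were small subunits and electron carriers. Uqcr11, a small subunit, was 11.78 and 11.87 in adult hearts against 15.22, 14.54 and 14.23 in pup hearts, lower by 2.84 (SE 0.35, limma adjusted p = 0.00145). It was 11.03 and 11.43 in adult hippocampi against 13.09, 12.44 and 12.31 in pup hippocampi, lower by 1.38 (adjusted p = 0.0284), a call lost without any of 4 hippocampal replicates (adjusted p up to 0.179), pup replicate 3 being the exception. Uqcrfs1, the Rieske iron-sulfur protein, was 11.77 and 11.80 in adult hearts against 14.10, 12.99 and 14.67 in pup hearts, lower by 2.14 (SE 0.43, adjusted p = 0.00954). Without either adult heart replicate that call was lost (adjusted p = 0.068 and 0.0599). In hippocampus Uqcrfs1 was 10.47 and 10.63 in adults and 11.39, 11.00 and 10.78 in pups, which was not called.

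Uqcrb, the ubiquinone-binding small subunit, was 12.93 and 13.70 in adult hippocampi against 15.61, 15.44 and 15.58 in pup hippocampi, lower by 2.23 (SE 0.27, limma adjusted p = 0.0017). In heart it was 15.08 and 14.67 in adults against 15.90, 15.79 and 15.77 in pups, and the difference of -0.95 (adjusted p = 0.0358) was lost without any 1 of the 5 heart samples (adjusted p 0.0531 to 0.214). The hippocampal call of Uqcrb was lost with the most variable probe set and with the 3 types of probe set left out (-0.56). Cyc1, cytochrome c1, and Uqcr10, another small subunit, were lower in heart by 1.34 and 1.28 (adjusted p = 0.0481 and 0.0238). The Cyc1 call was lost without pup heart replicate 1 or 3 or either adult heart replicate, and that of Uqcr10 without either adult heart replicate. The core proteins Uqcrc1 and Uqcrc2 were not called in either tissue, with differences of -0.66 and -1.56 in heart and -0.78 and -0.47 in hippocampus. Uqcrh, the hinge protein, lay between 15.33 and 15.75 in all 10 samples, and Uqcrq, a small subunit, differed by -0.26 and -0.29 without a call.

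In complex IV the called genes were Cox5a and Cox6c, supernumerary subunits around the mitochondrial core. Cox6c was 13.42 and 12.87 in adult hearts against 15.35, 15.16 and 15.20 in pup hearts, lower by 2.09 (SE 0.30, limma adjusted p = 0.00253). It was 12.25 and 12.58 in adult hippocampi against 14.29, 13.40 and 13.98 in pup hippocampi, lower by 1.48 (adjusted p = 0.0135, and 0.104 and 0.0538 without adult hippocampus replicate 1 or 2). Cox5a was 14.44 and 13.91 in adult hearts against 15.59, 15.54 and 15.55 in pup hearts, lower by 1.38 (SE 0.27, adjusted p = 0.0089, and 0.0774 without adult heart replicate 2). In hippocampus Cox5a was 13.10 and 13.87 in adults against 15.39, 15.30 and 15.25 in pups, lower by 1.83 (adjusted p = 0.00407).

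The subunits Cox6b1 and Cox6b2 are a somatic and a testis form of a protein at the dimer interface. Cox6b1 was 15.35 and 15.50 in adult hearts and 15.84, 15.64 and 15.56 in pup hearts. It was 15.14 and 15.21 in adult hippocampi and 15.52, 15.39 and 15.39 in pup hippocampi, with differences of -0.25 and -0.26 that were not called. Cox6b2 was 8.95 and 7.27 in adult hearts and 7.87, 7.56 and 9.24 in pup hearts. It was 8.79 and 10.18 in adult hippocampi and 7.55, 7.92 and 7.33 in pup hippocampi. The hippocampal difference of 1.89 (SE 0.65, limma adjusted p = 0.0783) did not pass, and the 2 technical arrays of adult hippocampus replicate 2 stood at 12.19 and 8.18, a gap of 4.0. Cox7b2, the testis form of subunit VIIb, was 11.34 and 12.03 in adult hearts and 10.92, 12.31 and 11.40 in pup hearts. It was 11.94 in both adult hippocampi and 12.13, 13.32 and 12.69 in pup hippocampi, and neither difference was called. Cox7c differed by 0.06 and 0.05 between ages, at its low level.

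Several members that were not called were measured near the top of the scale while dimmer probe sets of the same gene were lower in adults. Cox6b1 had a second probe set at a mean level of 13.24, which was lower by 2.58 in heart and 2.96 in hippocampus, both called. For Atp5a1, a probe set at 14.19 was lower by 1.62 and 2.45, both called, and another at 10.63 by 2.75 in heart. For Cox5b, whose brightest probe set gave 0.30 and 0.71 without a call, 4 of the 5 other probe sets were called lower in heart and 3 in hippocampus, by 1.02 to 1.99 and 1.65 to 2.23. Counting any probe set, 25 of the 37 genes (67.6%) had a call of lower in heart and 19 (51.4%) in hippocampus, where 15.2% and 12.0% of all genes had one. The genes added were Atp5a1, Atp5h, Cox5b and Cox6b1 in both tissues and Uqcrc2 in heart. Uqcrh, Sdhd, Uqcrq and Atp5g2 were also near the top of the scale and had dimmer probe sets. None of their probe sets was called lower in either tissue.

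Opposite calls within a gene occurred for Atp5j2. Its kept probe set was lower by 2.50 in heart and 1.72 in hippocampus, and another at a mean level of 12.97 was higher by 2.15 and 1.07. A further probe set of Atp5j2 was lower by 1.60 in heart. In hippocampus a dim probe set of Uqcr10, at 8.89, was higher by 1.00 while the kept one gave -1.06 without a call.

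**Figure D3:**
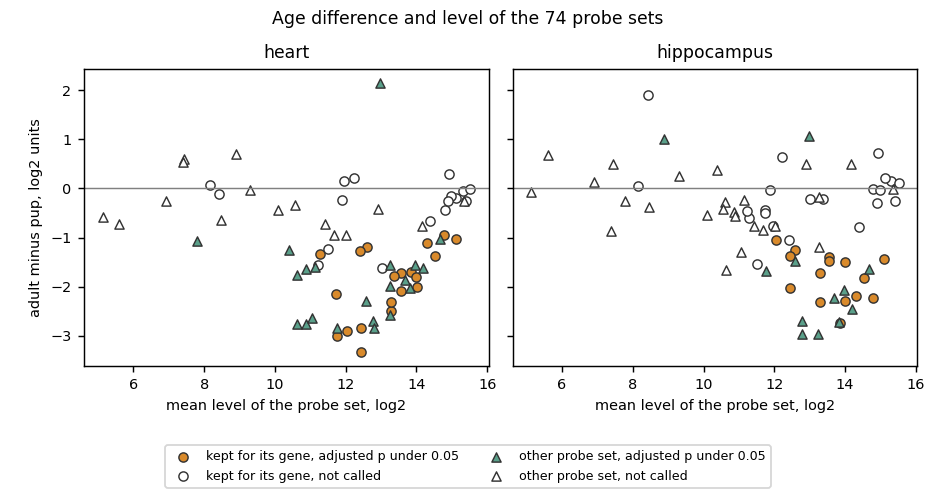
Adult minus pup difference (vertical axis, log2 units) against the mean level (horizontal axis, log2) of the 74 probe sets of the 37 genes, in heart (left) and hippocampus (right); circles are the probe sets kept for their genes, triangles the others, and filled symbols passed an adjusted p of 0.05. The level averages both ages on a scale that ends near 16, so a probe set with a large fall cannot lie at the right edge; the filled triangle at 2.15 in heart and 1.07 in hippocampus, at a level of 12.97, belongs to Atp5j2.

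Between the tissues, 6 members were higher in heart at both ages, 10 in pups alone and 4 in adults alone by the call, and 17 were not called at either age. In adults, 10 of 37 were higher and 0 lower in heart, where 10.2% of all genes were higher and 9.46% lower, with a median of 0.73 against 0.03 for all genes. With arrays centred on their medians, 8.73% of all genes were higher and 11.0% lower, and 9 members were higher. In pups, 16 were higher and 0 lower, where 7.43% of all genes were higher and 8.27% lower, with a median of 1.00 against 0.10. The share in adults was 27.0% of members and in pups 43.2%. Atp5c1, Atp5g1, Atp5o, Atp5pb, Cyc1 and Uqcr10 were called at both ages. In adults the calls of Atp5g1 and Atp5pb were lost without any 1 replicate, and with the 3 types of probe set left out Atp5g1 was at -0.70 in adults and Atp5c1 at -0.75 in adults and -0.36 in pups. Cyc1 was higher in heart by 2.29 in adults and 3.03 in pups (limma adjusted p = 0.00782 and 0.000536), Atp5c1 by 2.61 and 2.55, and Atp5g1 by 2.80 and 2.49. For Atp5g1, adult hearts at 12.28 and 12.35 lay above adult hippocampi at 9.50 and 9.52, while its paralogs were not called. Atp5g2 was at -0.46 in adults (adjusted p = 0.256) and -0.02 in pups, and Atp5g3 at 0.53 (adjusted p = 0.25) and 0.11. The pup values of Atp5g3 lay just under the array maximum in both tissues. Whether the scale limited its pup difference was not tested.

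The genes called in adults and not in pups were Sdhb, Uqcrb, Atp5d and Atp5k. These are 4 genes whose measured fall with age was larger in hippocampus than in heart, a difference that did not pass the test for any of them. Their pup means lay between 14.99 and 15.82 over both tissues, near the top of the scale. Whether the scale limited their tissue difference in pups was not tested. Sdhb was higher in adult heart by 1.48 (limma adjusted p = 0.00494), Uqcrb by 1.56, Atp5d by 1.25 and Atp5k by 0.85. Among the 10 genes called in pups and not in adults were Uqcrfs1 (2.87), Atp5l (2.76), Atp5j (2.73), Sdha (2.28), Atp5h (2.29), Uqcrc2 (2.25) and Uqcr11 (2.05). Whether a gene's tissue difference itself differed between ages is the interaction described next. The adult count was 3 without the adult heart replicate numbered 1, 4 without hippocampus replicate 1 of the adults and 5 without replicate 2 of either adult tissue, and the calls that held in all of these settings were Atp5c1 and Sdhb. In pups 13 of the 16 calls held without any 1 replicate.

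**Figure D4:**
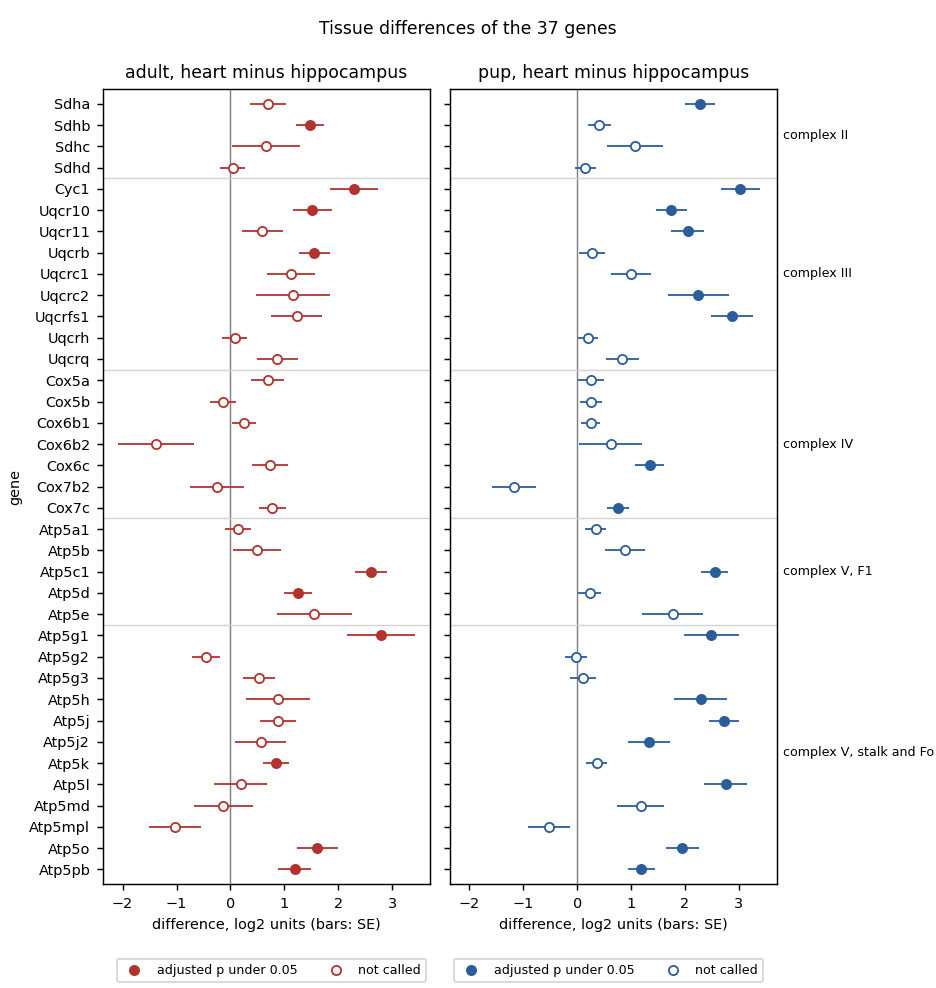
Heart minus hippocampus difference in log2 units (points, with bars for the SE of limma) of each gene in adults (left) and pups (right); filled points passed an adjusted p of 0.05. Filled points, 10 in adults and 16 in pups, all lie right of 0, and Atp5g1 stands apart from Atp5g2 and Atp5g3 in both panels.

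In the main fit, with 1 probe set per gene, the age difference was not shown to differ between tissues for any member. The interaction, which subtracts a gene's hippocampal age difference from its cardiac one, was past the threshold for 0 of 37 genes in limma, where 1.23% of all genes were lower and 2.45% higher. At an unadjusted p under 0.05 there were 8 members (20.3% of all genes). The median was -0.23 for members and -0.04 for all genes. The largest values were Atp5l at -2.57 (SE 0.63, limma adjusted p = 0.0601), Cox6b2 at -2.0 (SE 0.91, adjusted p = 0.262), Atp5j at -1.85 (SE 0.44, adjusted p = 0.0526) and Uqcrfs1 at -1.63 (SE 0.61, adjusted p = 0.175). Uqcrb lay on the other side at 1.28 (SE 0.38, adjusted p = 0.10). Without pup heart replicate 2, 3 members were called, and with each adult array taken as its own replicate, 7. In a fit over every probe set naming 1 gene, 1 of the 74 member probe sets was called lower, the kept one of its gene.

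Other genes of the pathway were described from lists of known function. Of 35 measured subunits of complex I, which passes electrons from NADH to ubiquinone, 18 were lower in heart and 15 in hippocampus, with medians of -1.37 and -1.05 and no gene higher. These are shares of 51.4% and 42.9%, where 9.38% and 7.44% of all genes were lower. Ndufa5, a peripheral arm subunit, was at -3.38 in heart (limma adjusted p = 0.00386) and Ndufb11, a membrane arm subunit, at -2.90 in hippocampus (adjusted p = 0.000736). The Ndufa5 call was lost without the 3 types of probe set, and its difference ran between -4.01 and -0.73 over the alternatives. Among 10 cytochrome oxidase subunits outside the rule, Cox7a2, the liver-type subunit VIIa, was lower by 2.83 in heart and 2.73 in hippocampus (limma adjusted p = 0.000777 and 0.00127). Cox4i1 and Cox8a were lower in heart by 1.67 and 0.97, calls lost without either adult heart replicate for Cox4i1 and without adult heart replicate 1 for Cox8a. Cycs, somatic cytochrome c that carries electrons between complexes III and IV, was 12.77 and 12.98 in adult hearts against 15.24, 13.68 and 14.85 in pup hearts, lower by 1.72 (adjusted p = 0.0198). The Cycs call was lost without either adult heart replicate, with a replicate block and in a fit of the heart groups alone, and the difference was 2.21 without the 3 types of probe set. Atpif1, which inhibits ATP hydrolysis by complex V, was 14.76 and 14.78 in adult hippocampi against 13.82, 13.43 and 12.83 in pup hippocampi, higher by 1.41 (SE 0.30, adjusted p = 0.0149). That call was lost without either adult replicate, and the mean over its probe sets gave -0.45. In heart the difference of 0.84 did not pass (adjusted p = 0.0772).

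Assembly factors help to build complexes II to V and are not part of them. Of 36 measured, 4 were lower and 2 higher in heart and 1 lower and 4 higher in hippocampus, with medians of -0.21 and 0.02. These are shares of 11.1% lower and 5.56% higher in heart and 2.78% and 11.1% in hippocampus, where those of all genes were 9.38% and 11.2%, and 7.44% and 8.63%. Cox17, a copper chaperone for complex IV, fell by 3.81 in heart (limma adjusted p = 0.00173) and Coa5 by 1.85, and both had a positive difference without the 3 types of probe set (2.31 and 1.26). Cmc1, which stabilizes an early assembly intermediate of complex IV, was 10.74 and 10.28 in adult hearts against 7.89, 8.75 and 8.62 in pup hearts and was higher by 2.09 in heart and 2.17 in hippocampus (adjusted p = 0.00353 and 0.00414), the hippocampal call being lost without adult replicate 1. In hippocampus Coa4 and Atpaf1, an F1 assembly factor, were higher by 1.47 and 1.06, and Cox11 was lower by 1.44. Each of these calls was lost without either adult replicate, without 1 or more of the pup replicates and with a replicate block, as was the heart call of Coa5. Of 16 transcription factors and coactivators of respiratory genes, Ppargc1b, a coactivator of mitochondrial biogenesis, was lower by 2.28 in heart and 1.34 in hippocampus (adjusted p = 0.00395 and 0.0385), the hippocampal call being lost without any 1 of the 5 samples and with a replicate block. Pprc1 and Esrrg were higher in hippocampus by 1.05 and 1.08, calls lost without either adult replicate, and Esrrg was at -0.86 with the most variable probe set and -0.07 with the mean over probe sets. Nrf1 was not called, at -1.17 in heart and -1.35 in hippocampus (adjusted p = 0.114 and 0.082), and neither was Gabpa, at 0.75 and 0.61. Of 22 genes of mitochondrial mass and the TCA cycle, 11 were lower and 1 higher in heart and 6 lower in hippocampus, among them Vdac2, an outer membrane channel, at -3.69 and -2.21, and Slc25a4, the ADP/ATP carrier, at -2.21 and -2.40. Slc25a4 in hippocampus was at 1.85 without the 3 types of probe set, and its call was lost with the mean over probe sets and with the most variable one. The heart call of Slc25a4 was also lost without those 3 types.

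Other measures were compared between ages as well. Of all genes, 9.38% were lower and 11.2% higher in adult heart, and 7.44% and 8.63% in adult hippocampus. The 12 cardiomyocyte markers averaged 13.71 to 14.05 in adult hearts and 14.69 to 15.19 in pup hearts, with 4 of 12 lower and 0 higher. The 4 endothelium markers averaged 10.59 to 10.60 in adult hearts and 12.64 to 13.04 in pup hearts, with 3 of 4 lower, and the 5 fibroblast markers 11.22 to 11.26 and 12.60 to 13.46, with 3 of 5 lower. Of 3 red blood cell markers, 2 were higher in adult heart. In hippocampus the 10 neuron markers averaged 12.72 to 13.14 in adults and 13.21 to 13.26 in pups. Of these, 3 were called lower and 1 higher. Their differences split into 5 negative and 5 positive, with a median of 0.15. Heart samples stood at 10.75 to 11.36 for the neuron markers. Of 5 astrocyte and 4 oligodendrocyte markers, 0 were called by age in hippocampus. Cardiomyocyte markers averaged 9.26 to 9.36 in adult hippocampi and 9.59 to 11.17 in pup hippocampi, highest in replicate 1. Without that pup replicate the hippocampal age count of members was 9, with a median of -0.49. Spiked hybridization controls, which are added to each array in fixed amount, averaged 10.73 in adult hearts and 13.16 in pup hearts, and 10.80 in adult hippocampi and 13.15 in pup hippocampi. Poly-A controls, which can be added to an RNA sample, were dim, below the array medians of 8.73 to 8.98. At that level they averaged 8.11 in adult hearts and 7.62 in pup hearts, and 7.88 in adult hippocampi and 7.62 in pup hippocampi. The 3′ probe set of Gapdh exceeded the 5′ one by a mean of 1.67 in adult hearts, 2.33 in pup hearts, 1.29 in adult hippocampi and 3.63 in pup hippocampi. Pup hearts, at 2.49, 0.72 and 3.8, lay on both sides of adult hearts, at 1.58 and 1.76, while the hippocampal ages did not overlap. For beta-actin the mean excess was 0.02 in adult hearts, 0.59 in pup hearts, 0.08 in adult hippocampi and 2.22 in pup hippocampi. Each adult sample was below every pup sample of its tissue for beta-actin. The part of these measures in the age differences of the 37 genes was not tested.

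**Figure D5:**
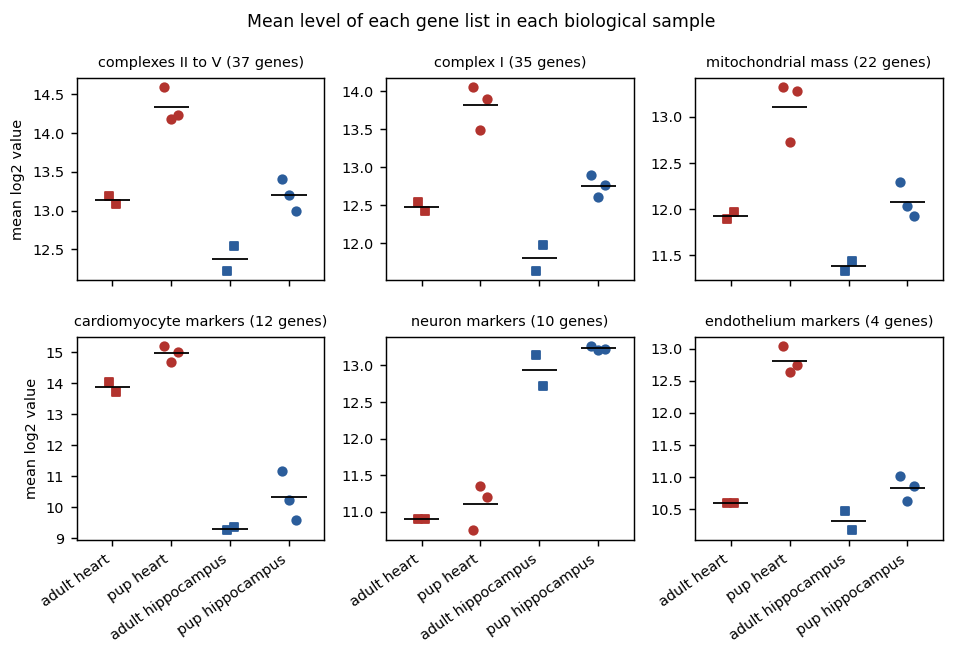
Mean log2 value of 6 gene lists (panels) in each of the 10 biological samples (squares adult, circles pup, red heart, blue hippocampus); horizontal lines are group means and each vertical axis has its own range. The means of complexes II to V, complex I and the mitochondrial mass list are lower in adults of both tissues, and the endothelium markers are at 10.59 to 10.60 in adult hearts and 12.64 to 13.04 in pup hearts.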

How the data were processed

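RNA of 14 samples was hybridized to single-colour Affymetrix mouse genome arrays. The authors deposited log2 values of 45101 probe sets, summarized by the upper decile with RMA 2.0 per the study's methods; the methods then centre arrays on the median and scale them by a percentile range, which the deposited values do not show and which was run as an alternative. Values ran between 2.67 and 16.0, array medians between 8.73 and 8.98 and array maxima between 15.98 and 16.0. Of the probe sets, 34958 named 1 gene, and the brightest per gene was kept (18194 genes). Technical arrays were averaged, which gave 10 samples. A limma fit of 4 group means (3.58.1, R 4.3.3, 6 residual and 3.10 prior degrees of freedom) gave 5 contrasts, two-sided, adjusted by Benjamini-Hochberg over all genes at 0.05. The script was tested on simulated data. The number of arrays limits the precision, and no detection call was used. The members and lists were chosen with earlier results of these data known. Values in every sample are given for the 2 called members with the largest age difference per complex and tissue, the 4 largest interactions and the paralog sets, with up to 4 called genes per pathway list and age comparison; other members, Nrf1 and Gabpa were named with their values known. Alternatives covered scaling, probe set choice, adult replicate definition, a dim filter, the variance model, the methods' t-test, a replicate block and leaving out replicates. Promoters are from RefSeq (GRCm38.p6).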

Additional observations from a re-analysis of the deposited data

Results flagged for a closer look

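Differences between the tissues in the age effect passed the test for 2 genes of the pathway lists. Cox17, a copper chaperone for complex IV, had an interaction of -3.65 (SE 0.70, limma adjusted p = 0.026), with -3.81 in heart and -0.15 in hippocampus. It was 10.48 and 10.62 in adult hearts and 14.63, 13.28 and 15.16 in pup hearts, and 11.44 and 11.96 in adult hippocampi and 11.89, 11.48 and 12.19 in pup hippocampi. The interaction was past the threshold in 12 of 22 alternatives, whose adjusted p lay between 0.00091 and 0.305. Esrrg, an oestrogen-related receptor, had an interaction of -1.47 (SE 0.30, limma adjusted p = 0.0322), with -0.38 in heart and 1.08 in hippocampus. It was 8.88 and 8.53 in adult hearts and 9.16, 9.05 and 9.06 in pup hearts, and 8.99 and 9.05 in adult hippocampi and 8.04, 7.99 and 7.78 in pup hippocampi. It passed in 10 of 22 alternatives, with an adjusted p between 0.0091 and 0.835.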

How the results depend on the processing

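The count of members called was 20 in the heart and 15 in the hippocampal age comparison, 10 between adult tissues, 16 between pup tissues and 0 for the interaction. With the adult arrays of a tissue averaged to 1 sample, the counts were 5 in heart, 6 in hippocampus and 0 between adult tissues. Fitting the heart groups alone gave 12. The methods' t-test gave 0 in heart, 3 in hippocampus, 0 between adult tissues and 3 between pup tissues at a 5% false discovery rate, with 18, 19, 13 and 22 at an unadjusted p under 0.05, and 0 everywhere at 0.1%. With each adult array as a replicate, or all arrays with the biological replicate as a random block, 18 members were called between adult tissues and 7 for the interaction. Without probe sets of the types _x_at, _s_at and _a_at, 31 members were measured, with 14 lower and 1 higher in heart and 8 lower and 2 higher in hippocampus by age; 10 were called between pup tissues and 4 between adult tissues, and the medians were -1.02 in heart, -0.26 in hippocampus, 0.25 between adult tissues, 0.42 between pup tissues and -0.51 for the interaction. The most variable probe set gave medians of -1.65, -1.05, 1.12, 1.40 and -0.51 in the same order and 2 interaction calls, and the mean over probe sets 1. Leaving out 1 replicate gave counts of 9 to 20 in heart, 6 to 11 in hippocampus, 3 to 5 between adult tissues, 13 to 17 between pup tissues and 0 to 3 for the interaction. The medians then ran between -1.39 and -1.01, -0.79 and -0.49, 0.51 and 0.94, 0.65 and 1.16, and -0.36 and -0.09. Between same-numbered pup tissues, deviations from the group means correlated at -0.092 to 0.203, which cannot show whether the tissues came from 1 animal. With a replicate block 18 members were called in heart, 13 in hippocampus and 9 between adult tissues. Between pup tissues 15 were higher and 1 lower, and 0 were called for the interaction. In the age comparisons this block matched pup and adult samples by replicate number only. Pups and adults were different animals, so a call kept or lost with it cannot show an effect of pairing. Of 2076 single-gene values under alternatives, 1672 kept side of the threshold and, where called, direction, and changes of sign without a call count among them. Another 363 lost the call, 23 gained one and 18 changed sign with a call in the main or the alternative setting. In the set without _x_at, _s_at and _a_at probe sets, those were Atp5c1 (0.12 in hippocampus by age, -0.75 between adult tissues, -0.36 between pup tissues), Atp5g1 (-0.70 between adult tissues), Atp5j2 (2.15 in heart, 1.07 in hippocampus, -0.18 between pup tissues), Atp5pb (0.37 in hippocampus), Uqcr10 (0.69 in heart), Coa5 (1.26 in heart), Cox17 (2.31 in heart), Cycs (2.21 in heart) and Slc25a4 (1.85 in hippocampus). The most variable probe set turned Coa5 in heart (1.26), Atpif1 in hippocampus (-1.92) and Esrrg in hippocampus (-0.86), and the mean over probe sets turned Atpif1 (-0.45) and Esrrg (-0.07) in hippocampus. These settings use other probe sets of a gene, and the cause of the change was not tested.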
